A study of Mus musculus with 6 samples.

Results

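The 10 genes described here serve the recognition of microbial products by Toll-like receptors and the response to bacterial endotoxin (lipopolysaccharide). They were chosen by gene symbol for this shared role, and all 10 were found, each in 1 row, among 45777 genes of a table of read counts. They comprise 3 receptor genes (Tlr2, Tlr3, Tlr4), the endotoxin-binding partners Cd14 and Ly96, the adaptor genes Myd88 and Ticam1, and the genes of 3 enzymes induced by endotoxin in macrophages (Acod1, Nos2, Ptgs2). All 10 had enough counts to be tested. The samples were 6 RNA-seq libraries of cultured dorsal root ganglion (DRG) neurons, the sensory neurons beside the spinal cord. The labels give wild-type female C57BL/6 mice aged 8 weeks, though the sex-linked transcripts given below do not match the labelled sex. The treated group was 3 libraries exposed for 12 hr to oncomodulin (ONCM), a calcium-binding protein added in recombinant form at 100 ng/ml. The control group was 3 libraries given PBS, also for 12 hr. The labels give neither the host in which the recombinant protein was made nor its endotoxin content, and endotoxin was not measured in these data. The labels number the libraries as biological replicates without naming separate cultures or animals, so each p-value reflects only how these libraries vary, which may be technical variation.

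Toll-like receptors are membrane proteins that bind conserved molecules of microbes or nucleic acids and pass the signal through adaptors with a shared TIR domain. MyD88 serves nearly all of these receptors and leads to NF-kB, while TRIF, the product of Ticam1, serves TLR3 and the internalised TLR4 and leads to interferon regulatory factors. Endotoxin is handed by LBP to CD14 and from there to the complex of TLR4 and MD-2, the product of Ly96. Macrophages are the best-known responders, and sensory neurons and glia have also been described to carry some of these receptors.

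Total counts ran from 53770820 to 64477014 per library. A floor of 3 counts in a library lay between 0.0464 and 0.0558 CPM (counts scaled to a common library size, with TMM factors), and covers counting error only. The 14 sensory neuron markers were all detected and summed to between 21890 and 23042 CPM in the ONCM libraries and between 22672 and 23475 CPM in the PBS libraries. The sums rest on a few abundant genes: 3 of the 14 rose (Tubb3, Stmn2 and Uchl1), 9 fell and 2 did not pass, with a median log2 fold change of -0.35. The cultures also held other cells. The 20 macrophage markers summed to between 209.6 and 218 CPM in the ONCM libraries and between 60.3 and 65.8 CPM in the PBS libraries, a ratio of group means of 3.36. The sex-linked transcripts did not match 1 sex across the libraries. Xist, the RNA of the inactive X chromosome, averaged 478 ± 55.8 CPM with ONCM and 0.53 ± 0.053 CPM with PBS (SD, n = 3 each), and the Y-linked Ddx3y averaged 16.1 ± 0.933 CPM with ONCM and 60.5 ± 2.17 CPM with PBS, though every sample is labelled female. ONCM, the sex make-up of the cultures and any other difference in source cells cannot be told apart for any gene below.

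By edgeR's quasi-likelihood test with Benjamini-Hochberg adjustment over all 20354 tested genes, 7 of the 10 members rose with ONCM, 0 fell and 3 did not pass at an adjusted p under 0.05. Over all tested genes 23.9% rose and 24.4% fell, and 48.3% were called in either direction. The members' median log2 fold change was 0.59, and that of all tested genes was 0.00 (-0.0021 before rounding). In the same 7 members every ONCM library lay above every PBS library in CPM, as it did for 27.6% of tested genes, while the groups did not overlap in either direction for 55.6%. The enzyme genes Acod1 and Nos2 rose most, followed by the receptor genes Tlr3 and Tlr2. Myd88, Ptgs2 and Cd14 rose by less, and Tlr4, Ly96 and Ticam1 did not pass. In RNA from mixed cultures, more cells of a type and more RNA per cell cannot be told apart.

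**Figure D1:**
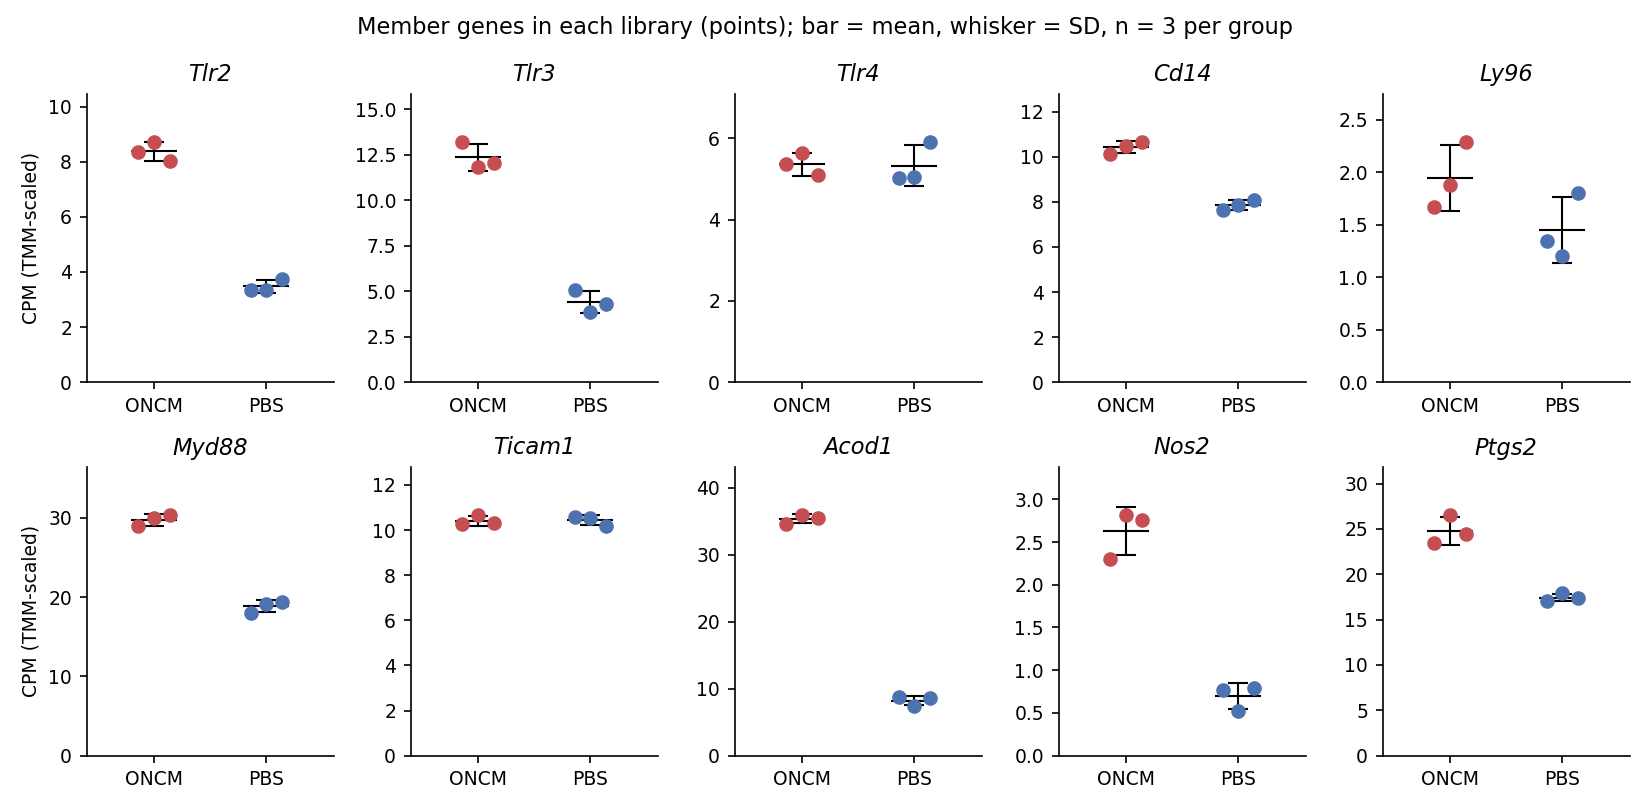
The CPM of each of the 10 members (y axis, TMM-scaled, starting at 0) is plotted for the 3 ONCM and the 3 PBS libraries (x axis), with the mean as a bar and the SD as whiskers. The ONCM points lie above all PBS points for the 7 genes that rose, and the groups overlap for Tlr4, Ly96 and Ticam1.

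Promoter windows of some members that rose are printed for the letters they hold. The window of Ptgs2, which rose and held no match, is not printed. RefSeq promoter windows of 300 bases (250 before to 50 after the start, build GRCm38.p6) were available for 6 of the 10 members. They were searched on both strands for 4 motifs: the NF-kB consensus, an interferon-response core (2 copies of GAAA with any 2 bases between them), the cyclic AMP element TGACGTCA and the AP-1 element TGANTCA. Capitals mark the matches in the windows of Tlr2 (chr3:83841559-83841858, minus strand), Tlr3 (chr8:45410331-45410630, minus strand) and Myd88 (chr9:119339969-119340268, minus strand). The window of Acod1 (chr14:103046762-103047061, plus strand), the member with the largest rise, is shown beside them and held no match.
Tlr2: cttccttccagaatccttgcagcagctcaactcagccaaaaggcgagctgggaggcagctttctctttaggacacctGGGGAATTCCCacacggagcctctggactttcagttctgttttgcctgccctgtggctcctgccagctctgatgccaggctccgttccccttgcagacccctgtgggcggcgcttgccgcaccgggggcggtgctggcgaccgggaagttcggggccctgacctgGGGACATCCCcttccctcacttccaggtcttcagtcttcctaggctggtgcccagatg
Tlr3: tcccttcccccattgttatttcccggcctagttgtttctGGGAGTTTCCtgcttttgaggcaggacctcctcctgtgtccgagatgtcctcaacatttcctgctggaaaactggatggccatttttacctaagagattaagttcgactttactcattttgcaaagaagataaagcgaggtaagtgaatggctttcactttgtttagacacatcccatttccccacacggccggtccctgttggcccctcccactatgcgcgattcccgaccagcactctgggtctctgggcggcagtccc
Myd88: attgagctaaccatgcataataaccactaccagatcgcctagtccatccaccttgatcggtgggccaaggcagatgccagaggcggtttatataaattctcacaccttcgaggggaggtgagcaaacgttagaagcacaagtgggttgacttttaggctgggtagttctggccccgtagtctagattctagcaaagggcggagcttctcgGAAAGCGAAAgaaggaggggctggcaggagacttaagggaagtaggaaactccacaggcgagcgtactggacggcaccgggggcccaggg
Acod1: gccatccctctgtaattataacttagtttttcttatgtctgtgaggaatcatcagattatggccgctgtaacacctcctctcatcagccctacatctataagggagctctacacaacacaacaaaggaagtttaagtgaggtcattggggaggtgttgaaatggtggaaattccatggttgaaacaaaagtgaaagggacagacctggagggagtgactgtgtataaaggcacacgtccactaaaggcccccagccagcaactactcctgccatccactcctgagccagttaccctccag

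The starts used for the Tlr2 and Tlr3 windows lie inside the gene spans, which reach 83841824 and 45411075 on these minus strands. The whole Tlr3 window and all Tlr2 matches therefore lie within the span of their gene. The Tlr2 window held 3 matches to the NF-kB consensus. A pair of them overlap from base -173 to -163 before the start used for the window, while the other runs across that start. Tlr3 held 1 match to the same consensus, from base -211 to -202. Such a match is present in 8.46% of the 32851 windows in the RefSeq table. Myd88 held 1 match to the interferon-response core, from base -40 to -31, and 3.44% of all windows hold one. The cyclic AMP element was in 1.79% and the AP-1 element in 7.81% of all windows and in none of the 6 members' windows. The windows of Ptgs2, which rose, and of Ticam1, which did not pass, held none of the 4 motifs. A match is a run of letters in the reference and was not tested as a binding site.

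Tlr2 encodes the receptor for bacterial lipoproteins (Entrez 24088, chromosome 3, 83836272 to 83841824, minus strand). It stood at 8.37, 8.73 and 8.04 CPM in the ONCM libraries, against 3.34, 3.34 and 3.74 CPM in the PBS libraries. The groups were well apart, and Tlr2 rose 2.41-fold (log2 fold change 1.27, SE 0.09, edgeR adjusted p = 1.75e-09). Its promoter window is the one above with 3 NF-kB consensus matches.

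Tlr3 encodes the endosomal receptor for double-stranded RNA (Entrez 142980, chromosome 8, 45395665 to 45411075, minus strand). Its level was 13.2, 11.8 and 12.1 CPM with ONCM, against 5.06, 3.86 and 4.31 CPM with PBS. The lowest ONCM library exceeded the highest PBS library, and Tlr3 rose 2.79-fold (log2 fold change 1.48, SE 0.09, edgeR adjusted p = 3.05e-10). An annotated antisense transcript, Gm45542, overlaps a Tlr3 exon by 258 bases in GENCODE and was not analysed here. Whether the counting used strand is not stated, so reads from that stretch cannot be assigned to a strand.

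Tlr4, the signalling receptor for endotoxin (Entrez 21898, chromosome 4, 66827551 to 66846581, plus strand), was at 5.36, 5.65 and 5.09 CPM in the ONCM libraries, against 5.03, 5.04 and 5.92 CPM in the PBS libraries. The groups overlapped over most of their range. The log2 fold change was 0.01 with a 95% interval from -0.20 to 0.22 (edgeR adjusted p = 0.943), so that a rise of the size seen for Tlr2 lies outside the interval.

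Cd14 encodes the surface and soluble protein that loads endotoxin onto TLR4 (Entrez 12475, chromosome 18, 36725064 to 36726815, minus strand). It was counted at 10.1, 10.5 and 10.7 CPM with ONCM, against 7.62, 7.87 and 8.08 CPM with PBS. All ONCM libraries were higher, and the rise was small at 1.33-fold (log2 fold change 0.41, SE 0.07, edgeR adjusted p = 1.23e-04).

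Ly96, for the MD-2 subunit that holds the lipid part of endotoxin (Entrez 17087, chromosome 1, 16688456 to 16709605, plus strand), had between 67 and 128 counts per library. It stood at 1.67, 1.88 and 2.29 CPM with ONCM, against 1.35, 1.20 and 1.80 CPM with PBS. One PBS library lay above the lowest ONCM library. The log2 fold change was 0.43 (SE 0.18, 95% interval from 0.05 to 0.81) and missed the threshold (edgeR adjusted p = 0.0605). It passed without PBS replicate 3 (log2 fold change 0.61, adjusted p = 0.0182) and without ONCM replicate 1 (0.53, adjusted p = 0.0426), and over all its alternatives the adjusted p ran from 0.0182 to 0.248.

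Of the adaptor genes, Myd88 rose and Ticam1 did not pass. Myd88 (Entrez 17874, chromosome 9, 119335934 to 119340018, minus strand) stood at 28.9, 29.9 and 30.3 CPM in the ONCM libraries, against 18.0, 19.1 and 19.4 CPM in the PBS libraries. The ONCM values lay far above the PBS values relative to the spread, and Myd88 rose 1.58-fold (log2 fold change 0.66, SE 0.05, edgeR adjusted p = 4.48e-09). Acaa1a, a peroxisomal thiolase gene on the opposite strand, overlaps a Myd88 exon by 223 bases and may share reads with it. Acaa1a itself rose 1.27-fold, to 28.9 ± 1.82 CPM with ONCM, against 22.8 ± 1.27 CPM with PBS.

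Ticam1, the gene of TRIF (Entrez 106759, chromosome 17, 56269462 to 56276767, minus strand), had 10.3, 10.7 and 10.3 CPM with ONCM, against 10.6, 10.5 and 10.2 CPM with PBS. These 6 values were interleaved. Its log2 fold change was 0.00 (-0.0033 before rounding) with a 95% interval from -0.15 to 0.14 (edgeR adjusted p = 0.974).

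Acod1, formerly Irg1, encodes the enzyme that makes itaconate from cis-aconitate in activated macrophages (Entrez 16365, chromosome 14, 103047012 to 103056573, plus strand). It was at 34.6, 35.9 and 35.5 CPM in the ONCM libraries, against 8.69, 7.40 and 8.60 CPM in the PBS libraries. No ONCM library came near the PBS range. Acod1 rose 4.29-fold (log2 fold change 2.10, SE 0.06, edgeR adjusted p = 6.61e-15) and ranked 335 from the top among all tested genes by log2 fold change.

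Nos2 encodes the inducible nitric oxide synthase (Entrez 18126, chromosome 11, 78920787 to 78960226, plus strand). It had few reads, with 124, 169 and 154 counts in the ONCM libraries, against 50, 29 and 46 counts in the PBS libraries. In CPM these were 2.31, 2.82 and 2.76 with ONCM, against 0.773, 0.518 and 0.796 with PBS. The groups did not overlap, and Nos2 rose 3.75-fold (log2 fold change 1.91, edgeR adjusted p = 9.03e-08) with a wider SE, 0.19, than Acod1. On the log2(TPM + 1) scale, which understates the change of low genes, its log2 fold change was 0.83.

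Ptgs2, the gene of cyclooxygenase 2 and of inducible prostaglandin synthesis (Entrez 19225, chromosome 1, 150100031 to 150108234, plus strand), stood at 23.5, 26.5 and 24.4 CPM with ONCM, against 17.1, 17.9 and 17.4 CPM with PBS. Each ONCM library exceeded each PBS library. The rise was 1.42-fold (log2 fold change 0.51, SE 0.06, edgeR adjusted p = 5.86e-07).

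**Figure D2:**
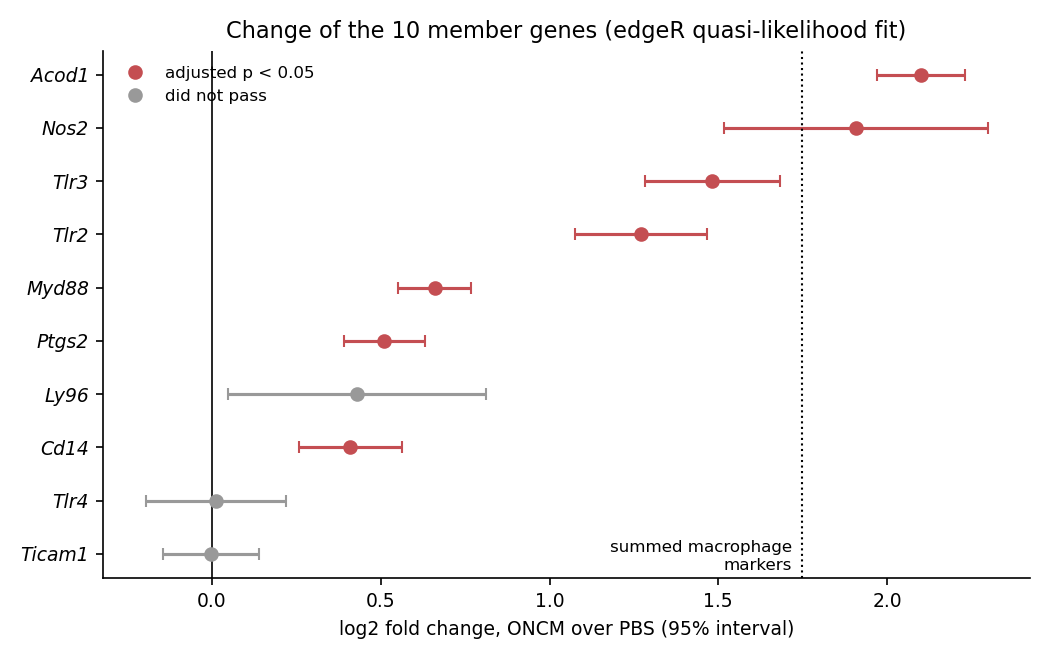
The log2 fold change of ONCM over PBS (x axis) is drawn for the 10 members (y axis) with its 95% interval, in red where the adjusted p was under 0.05 and in grey otherwise. The dotted line stands at the ratio of the summed macrophage markers, 3.36 on the linear scale, with Acod1 and Nos2 to its right and the other 8 members to its left.

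Macrophage markers moved with the raised members. Of the 20 markers 18 rose, 0 fell and 2 (Cx3cr1 and Fcgr3) did not pass, with a median log2 fold change of 1.89. None of the 20 was at 0 in a whole group. For comparison with these and the other markers, 23.9% of all tested genes rose and 24.4% fell. Cd68, a lysosomal glycoprotein of macrophages, averaged 29.1 ± 1.05 CPM with ONCM and 12.9 ± 0.676 CPM with PBS. Adgre1, which encodes the F4/80 antigen, averaged 7.80 ± 0.323 CPM with ONCM and 1.72 ± 0.338 CPM with PBS. The summed markers were thus 3.36 times as high with ONCM, while Tlr4 was 1.01 times and Cd14 1.33 times as high in the same libraries. The part of macrophage RNA in the members' rises was not tested. Of 10 neutrophil markers 4 rose, 0 fell, 2 did not pass and 4 were too low to test, of which Mpo and Elane were at 0 in all 6 libraries. Those that rose were Ly6g, Csf3r, Cxcr2 and Ltf, and only 2 rose without PBS replicate 1, without PBS replicate 3, with DESeq2 or at 1 CPM in 3 libraries. S100a8 (log2 fold change -0.72, edgeR adjusted p = 0.0700) and S100a9 (-0.62, adjusted p = 0.0620) did not pass but were lower in every ONCM library than in every PBS library, and 2 markers were called lower by limma on either TPM scale. Their sum was between 5.12 and 5.36 CPM with ONCM and between 2.32 and 2.81 CPM with PBS. Schwann cell and satellite glia markers summed to 1.08, fibroblast markers to 1.19 and endothelial markers to 1.16 times the PBS level. Of 12 Schwann cell and satellite glia markers 5 rose, 1 fell and 6 did not pass, with a median log2 fold change of 0.03. Of 10 fibroblast markers 6 rose, 0 fell and 4 did not pass (median 0.25). Endothelial markers split in the same way, with 6 of 10 raised, 0 lowered and 4 not passing (median 0.19). Neuron markers summed to 0.969 times the PBS level, while 9 of the 14 fell, among them Scn10a (log2 fold change -0.97) and Rbfox3 (-0.67).

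Between genes, levels were compared per length, as TPM (transcript abundance scaled to a common total). With ONCM, Myd88 (37.3 ± 0.772 TPM) and Acod1 (33.2 ± 0.76 TPM) were the most abundant members. They were followed by Cd14 (15.3 ± 0.326 TPM), Ptgs2 (13.5 ± 0.94 TPM), Ticam1 (8.93 ± 0.28 TPM) and Ly96 (7.84 ± 1.24 TPM). Tlr2 (7.05 ± 0.382 TPM) and Tlr3 (6.78 ± 0.416 TPM) came next, and Tlr4 (1.65 ± 0.107 TPM) and Nos2 (1.53 ± 0.158 TPM) were lowest. Neighbours from Ticam1 down to Tlr3 overlapped in their libraries, as did Tlr4 and Nos2. With PBS, Acod1 stood at 8.06 ± 0.718 TPM, below Myd88, Cd14, Ptgs2 and Ticam1, and overlapped Ly96 (6.04 ± 1.30 TPM). The co-receptor genes were more abundant than the receptor itself in both groups, with Cd14 at 15.3 TPM against Tlr4 at 1.65 TPM with ONCM, and 12.0 TPM against 1.71 TPM with PBS.

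Among the 9 other Toll-like receptor genes, 6 rose and 1 fell, and Tlr11 and Tlr12 were too low to test. These counts stand beside 23.9% raised and 24.4% lowered over all tested genes. The median log2 fold change of the 7 tested was 1.37, and the summed macrophage markers were 3.36 times as high in the same libraries. Tlr9, a receptor for unmethylated DNA, rose 3.43-fold, to 5.68 ± 0.199 CPM with ONCM, against 1.66 ± 0.128 CPM with PBS. Tlr13 and Tlr7, endosomal receptors for RNA, rose 2.75-fold and 2.59-fold. Tlr5, the receptor for bacterial flagellin, was the gene that fell, at 1.25, 1.20 and 1.09 CPM with ONCM, against 3.43, 2.97 and 3.70 CPM with PBS (log2 fold change -1.51, SE 0.15, edgeR adjusted p = 8.94e-08). In TPM, Tlr5 was below Tlr2 and Tlr3 with ONCM, at 0.73 ± 0.184, and overlapped Tlr3 with PBS, at 2.61 ± 0.269. Tlr7, Tlr8 and Tlr13 lie on the X chromosome, and Xist separated the groups as given above.

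**Figure D3:**
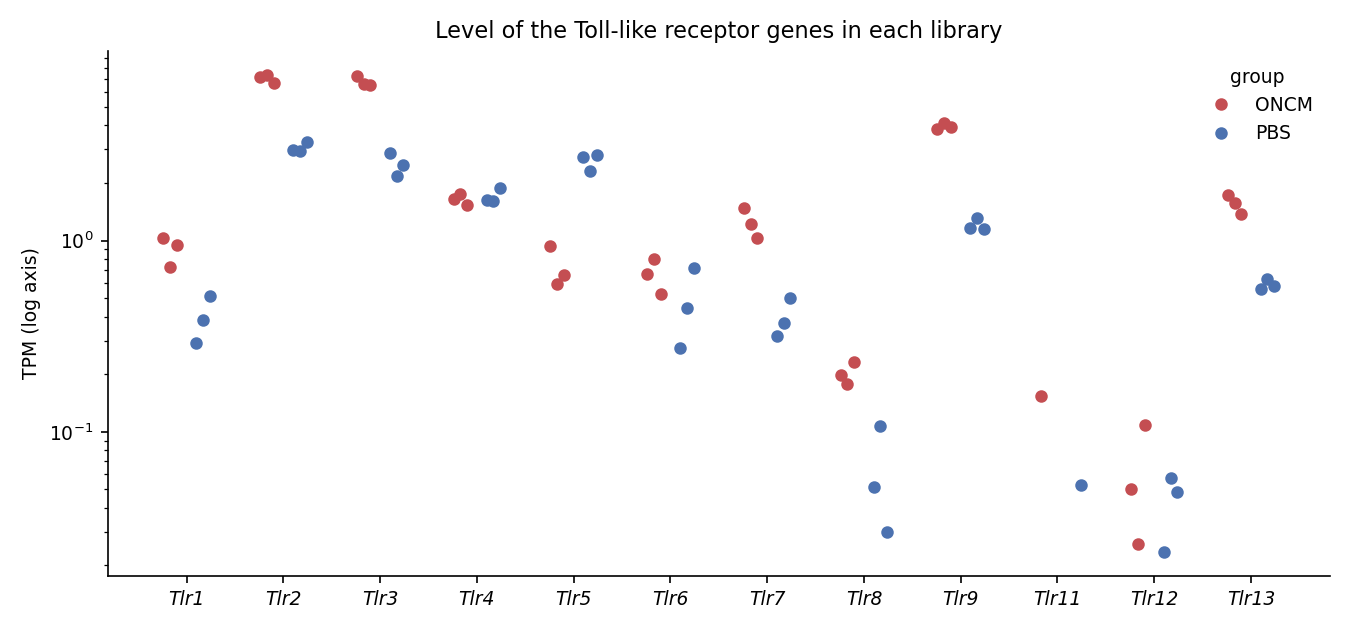
The TPM of 12 Toll-like receptor genes (y axis, log scale) is shown in the 3 ONCM and 3 PBS libraries of each gene (x axis), with libraries at 0 left out. Tlr2 and Tlr3 were highest with ONCM, the groups overlapped for Tlr4, and Tlr5 was lower with ONCM.

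Genes that present endotoxin or fold and carry the receptors split. Of 10 listed, 5 rose, 4 fell and 1 (Bpi) had no count. Among all tested genes the shares were 23.9% raised and 24.4% lowered. Cd180, a Toll-like receptor homologue of B cells and macrophages, rose 3.58-fold to 10.9 ± 1.04 CPM with ONCM, against 3.04 ± 0.092 CPM with PBS. Ly86, which encodes MD-1, the partner of the CD180 protein, fell to 37.0 ± 1.22 CPM with ONCM, against 71.0 ± 5.15 CPM with PBS (log2 fold change -0.94, SE 0.05, edgeR adjusted p = 1.72e-11). The scavenger receptor gene Cd36 rose 3.60-fold. Hsp90b1, for the endoplasmic reticulum chaperone gp96 that folds these receptors, had a log2 fold change of -0.36.

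Of 24 genes for signalling below the receptors, 9 rose, 7 fell and 8 did not pass, with a median log2 fold change of 0.05. Over all tested genes 23.9% rose and 24.4% fell, the shares to set beside this list and the inhibitors below. The interferon regulatory factor genes Irf7 and Irf5 rose 3.36-fold and 2.53-fold, and Pik3ap1, an adaptor to PI3 kinase, rose 2.97-fold. Tab3, for a subunit of the TAK1 kinase complex, fell by 0.49 on the log2 scale. Inhibitors of the pathway were raised in 13 of 16 cases, with 1 (Cyld) lowered and 2 not passing, and a median of 0.55. Nfkbia, for the NF-kB inhibitor IkB-alpha, and Tnfaip3, for the ubiquitin editor A20, rose 1.68-fold and 1.73-fold. Dusp1, a phosphatase of MAP kinases, rose 1.60-fold, and Il1rl1, the interleukin 33 receptor gene, rose 3.98-fold. Macrophage markers rose in these libraries too, as given above.

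Of 35 genes known to be induced by endotoxin in macrophages, 31 rose, 0 fell, 2 did not pass and 2 were too low to test. The raised share over all tested genes was 23.9%. The median log2 fold change was 1.08, beside 0.59 for the members. The chemokine genes Cxcl5, Cxcl1 and Cxcl10 rose 6.67-fold, 3.78-fold and 3.49-fold, with Cxcl10 at 176.5 ± 9.76 CPM with ONCM and 50.6 ± 1.95 CPM with PBS. Il1rn, the interleukin 1 receptor antagonist gene, rose 3.64-fold. Il1b, an early endotoxin-induced cytokine gene with between 37 and 71 counts per library, did not pass (log2 fold change 0.09, SE 0.24). Mefv did not pass either (-0.57, SE 0.30). Other cytokine genes of the list, Il6, Il1a and Tnf, rose 2.60-fold, 2.12-fold and 2.10-fold. Macrophage markers moved with this list as well, and their part in it was not tested.

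**Figure D4:**
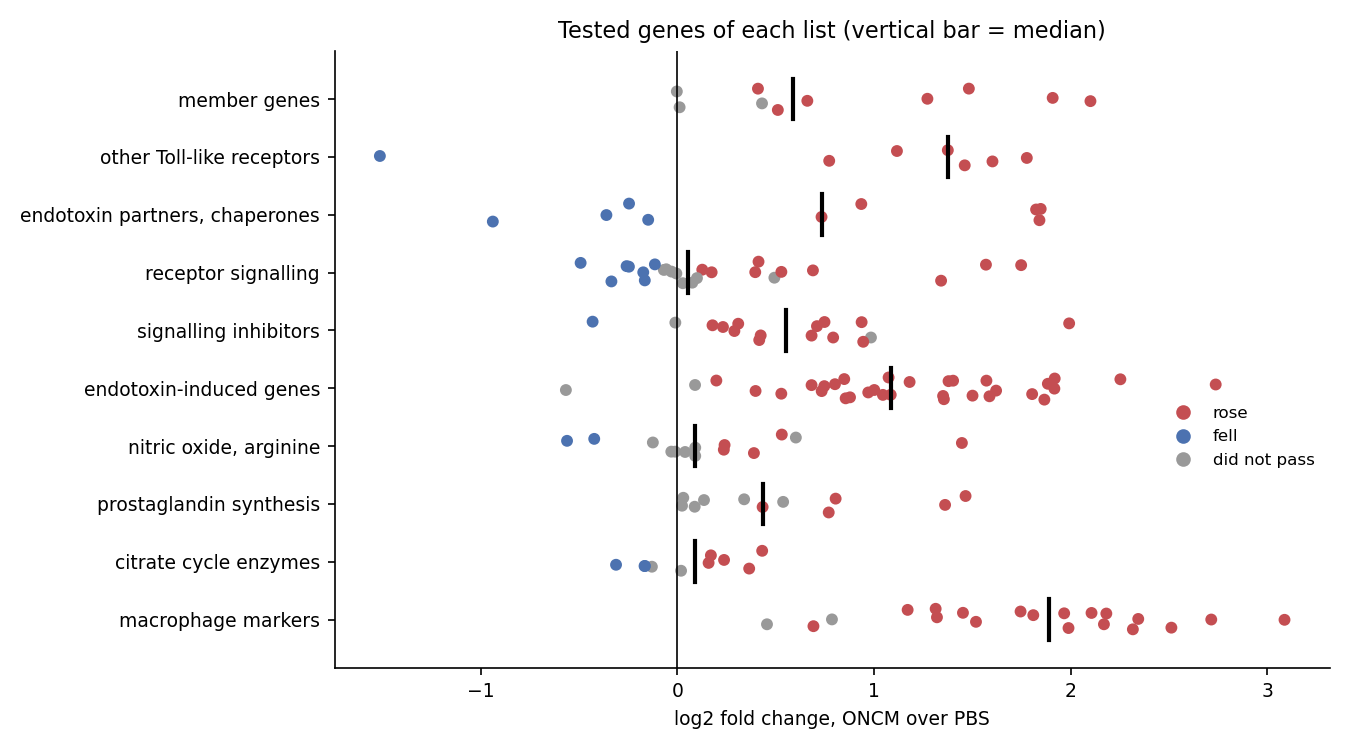
Each point is a tested gene, placed by its log2 fold change of ONCM over PBS (x axis) in the row of its list (y axis), with the list's median as a vertical bar. Medians were 0.59 for the members, 1.08 for endotoxin-induced genes, 1.37 for the other receptors, 0.05 for receptor signalling and 1.89 for macrophage markers.

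The lists for the pathways of the 3 enzymes are read beside the 48.3% of all tested genes called in either direction. Of all tested genes 23.9% rose and 24.4% fell. Of 14 genes of nitric oxide synthesis and arginine use, 5 rose, 2 fell and 7 did not pass, with a median log2 fold change of 0.09. The 7 of 14 called in either direction are close to the share over all tested genes. Arg2, the mitochondrial arginase gene, rose 2.73-fold. Nos1, the neuronal nitric oxide synthase gene, fell to 54.6 ± 2.14 CPM with ONCM, against 80.5 ± 2.84 CPM with PBS, and in TPM stood above Nos2, at 13.7 against 1.53 TPM with ONCM. Ass1, for the enzyme that recycles citrulline, fell by 0.42 on the log2 scale, and the arginine transporter gene Slc7a2 rose 1.31-fold.

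Of 12 genes listed for prostaglandin synthesis and turnover, 5 rose, 0 fell, 6 did not pass and 1 (Pla2g2a) had no count, with a median of 0.43. The 5 of 11 tested that were called are likewise close to the share called in either direction over all tested genes. All 5 were raised, beside 23.9% of all tested genes. Among the 5 is Hpgd, for an enzyme that breaks down prostaglandins, which rose 1.75-fold. Ptges, the inducible prostaglandin E synthase that takes up the product of cyclooxygenase 2, rose 1.70-fold to 43.6 ± 3.02 CPM with ONCM, against 25.6 ± 1.56 CPM with PBS. Cbr1, a carbonyl reductase, rose 1.35-fold, and the low-count synthase genes Hpgds and Tbxas1 rose 2.57-fold and 2.76-fold. Of 10 citrate cycle enzymes around the itaconate branch, 5 rose, 3 fell and 2 did not pass, with a median of 0.09. Acly, which consumes citrate in the cytosol, rose 1.35-fold, and Idh1, the cytosolic isocitrate dehydrogenase gene, rose 1.29-fold.

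The tested genes most like the members in pattern were found by the root mean square distance between a gene's centred log2(CPM + 0.5) in the 6 libraries and the median profile of the 7 raised members. They were Cd68 (distance 0.033), Raet1e (0.044) and Ltbp1 (0.045). Cd68, given above among the macrophage markers, rose 2.25-fold. Raet1e, a ligand gene of an activating natural killer receptor, and Ltbp1, a binding protein of latent TGF-beta, rose 3.56-fold and 2.21-fold. The added 0.5 CPM shrinks the change of low genes, and Raet1e averaged 1.24 CPM with ONCM and 0.347 CPM with PBS. With 0.01 CPM added instead, an alternative chosen after the data were seen, Cd68 (0.047) stayed among the nearest 3, Ltbp1 (0.071) ranked 20 and Raet1e (0.317) ranked 1069. Of the 7 members themselves, Tlr2 lay nearest to the profile on log2(CPM + 0.5) (0.05) and Acod1 farthest (0.467).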

How the data were processed

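RNA was sequenced from 6 libraries, 3 with ONCM and 3 with PBS. The authors deposited 1 table with raw read counts, TPM and FPKM per gene and library. Counts were tested as deposited, the deposited TPM values served for levels between genes and as an alternative scale, and the deposited FPKM values were not used. The submitters' processing notes name build mm10. Which aligner, counter, annotation and strand setting were used is not stated in these sources. Positions and promoter windows came from RefSeq tables of GRCm38.p6, the same assembly, matched by Entrez number for 45679 of 45777 genes, and exon overlaps came from GENCODE vM21.

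In R 4.3.3 with edgeR 4.0.16, genes passing filterByExpr were scaled by TMM, and the groups were compared by the robust quasi-likelihood F-test without covariates. The SE is the log2 fold change over the square root of F. Alternatives used DESeq2 1.42.0, limma 3.58.1 on log2(TPM + 1) or log2(TPM + 0.1), other filters, another scaling, a replicate block, no sex-linked or mitochondrial genes, and each library left out. Pairs of replicates, compared by chi-square on genes with 20 or more counts, gave 2.76 to 7.09 per degree of freedom within groups, so no library was counted as a duplicate. Counts were also simulated from these libraries (20354 genes, 50 changed per size). There the test recovered 46% of 1.25-fold, 66% of 1.5-fold, 86% of 2-fold and 94% of 4-fold changes, with 8.75% of calls false. Few genes changed in the simulation, while 48.3% of tested genes were called in the data, and the adjustment depends on that share. The recovered and false shares therefore hold for the simulated setting only.

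The members, gene lists and alternatives were chosen with earlier results of these data known. All members were named, with up to 4 genes of the smallest p in each pathway list, and genes outside this rule were chosen after their values were seen. A gene that this rule names is not reported here. No set test was run.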

Additional observations from a re-analysis of the deposited data

How the results depend on the processing

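Each member's log2 fold change was recomputed under 14 alternatives. The 7 raised members passed in the same direction under all 14, with Acod1 between 1.92 and 2.14, Nos2 between 0.83 and 2.00, Tlr3 between 1.15 and 1.59, Tlr2 between 0.98 and 1.32, Myd88 between 0.58 and 0.68, Ptgs2 between 0.41 and 0.55 and Cd14 between 0.32 and 0.43. Tlr4 (-0.05 to 0.09) and Ticam1 (-0.06 to 0.01) passed under none and changed sign among them. Ly96 passed under 4: at least 1 CPM in 3 libraries (0.44, adjusted p = 0.0452), the replicate block (0.43, adjusted p = 0.041), and without ONCM replicate 1 or PBS replicate 3, given above. The cause was not tested. Raised members numbered 7 to 8 over all settings and lowered members 0. With the replicate block 8 members rose. Libraries with the same number had correlations of deviations of -0.015, -0.0049 and 0.013 across genes. Those with different numbers ran from -0.044 to 0.050. These values gave no sign of pairing but cannot exclude it, since the deviations hold counting noise. Leaving out 1 library gave 74 to 78 raised and 17 to 18 lowered genes in the 8 pathway lists, against 79 and 18 with all libraries, and 4305 to 4655 raised and 4447 to 4882 lowered among all genes, against 4869 and 4960. On log2(TPM + 1) 3631 genes were raised and 5628 lowered, so that rises made up 39.2% of calls, against 49.5% on counts, and 7 members rose. Without genes of chromosomes X, Y and MT, or at 1 CPM, 3 of the other Toll-like receptor genes rose, since the others left the fit. Nos2 and Ly96, with the fewest counts, had the widest errors.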
